A study of Mus musculus with 2 samples.

Results

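Bone morphogenetic protein (BMP) and transforming growth factor beta (TGF-beta) signalling was followed through 10 genes chosen by name, with earlier results of these data known. These are the ligands Bmp6 and Bmp4, the type I receptor Acvrl1 (ALK1), the type II receptors Bmpr2 and Tgfbr2, the co-receptor Eng (endoglin), the inhibitory SMADs Smad6 and Smad7, and the transcriptional targets Id1 and Id3. All 10 are among the 17641 genes listed for normal endothelial cells (NECs) and the 15644 listed for tumor endothelial cells (TECs). A wider list of 77 genes of the same pathway, of which 67 are not among the 10, was used beside them.

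The series holds 2 droplet libraries of single cells sorted as CD45-/CD31+, where CD31 marks endothelium and CD45 marks leukocytes. The NEC library came from pooled normal mammary glands of C57BL/6 mice aged 6 to 8 weeks, and the TEC library from pooled E0771 tumors, a mouse mammary carcinoma line implanted in the mammary gland. The labels give strain and age for the NEC library only, while the study's methods state a C57BL/6 background for its strains and female mice aged 8 weeks. Some labels of the NEC library name TECs or E0771 while its title and the study's design give normal glands, which is how it was read. Each condition is 1 library of pooled tissue without a replicate, so no test was possible, cells are not replicates, and all intervals given are at 95% and cover counting error only.

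Cells were kept when they had at least 200 genes, under 10% mitochondrial UMIs (unique molecular identifiers, each standing for 1 captured transcript), no UMI of Ptprc, Myh11, Epcam or Cspg4, and at least 1 UMI of Cdh5 or Pecam1. Tumor cells also needed more Cdh5 and Pecam1 than Rhox5, Hmga2 and Krt8 UMIs. This left 4940 of 9047 barcodes as NECs (median 2976.5 UMIs per cell) and 261 of 704 as TECs (median 16989 UMIs). The libraries shared 3 barcodes, none of them among the cells kept. All 12 endothelial markers had UMIs in both groups, summing to 7967 counts per 1000000 UMIs (CPM) in NECs and 7393 CPM in TECs. The groups differed in other lists: mitotic markers were at 171 CPM in NECs and 998 CPM in TECs, tip cell markers at 651 and 3804, capillary markers at 29177 and 5982, pericyte markers at 156 and 44.3, and fibroblast markers at 64.7 and 7.53. Salivary gland transcripts reached 2102 CPM in NECs and were not listed for TECs. The part of these differences, and of depth, in the results was not tested except where values without the cells concerned are given.

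BMPs bind a complex of type I and type II receptors on endothelium, where ALK1 and BMPR2 with endoglin form the main route for circulating BMP9 and BMP10. The active receptor phosphorylates SMAD1 and SMAD5, which enter the nucleus with SMAD4 and switch on the Id genes, inhibitors of differentiation, and the feedback inhibitors Smad6 and Smad7. TGF-beta signals through TGFBR2 and TGFBR1 to SMAD2 and SMAD3. Inherited loss of ENG or ACVRL1 causes hereditary haemorrhagic telangiectasia, and loss of BMPR2 causes pulmonary arterial hypertension.

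The stretch before the transcription start is shown for a ligand (Bmp4), a co-receptor (Eng) and a feedback inhibitor (Smad6). Each is the 250 bases before the RefSeq start on GRCm38, printed along the gene's own strand, and lies outside the gene as GENCODE M21 gives it. Capitals mark CAGAC or, on the other strand, GTCTG, a short SMAD-binding motif. Windows were matched by symbol for 7 of the 10 genes. Id1, Acvrl1 and Smad7 are not among them.
Bmp4, chr14:46390670-46390919, minus strand: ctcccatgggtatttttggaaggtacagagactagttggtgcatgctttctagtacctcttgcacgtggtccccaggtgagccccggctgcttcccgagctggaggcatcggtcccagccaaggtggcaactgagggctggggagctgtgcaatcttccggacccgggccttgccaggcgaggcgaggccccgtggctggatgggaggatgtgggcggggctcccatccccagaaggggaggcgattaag
Eng, chr2:32646345-32646594, plus strand: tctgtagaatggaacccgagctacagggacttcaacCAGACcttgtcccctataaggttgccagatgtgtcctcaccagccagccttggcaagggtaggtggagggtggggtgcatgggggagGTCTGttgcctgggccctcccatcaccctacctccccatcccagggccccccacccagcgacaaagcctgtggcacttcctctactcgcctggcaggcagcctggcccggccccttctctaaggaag
Smad6, chr9:64022060-64022309, minus strand: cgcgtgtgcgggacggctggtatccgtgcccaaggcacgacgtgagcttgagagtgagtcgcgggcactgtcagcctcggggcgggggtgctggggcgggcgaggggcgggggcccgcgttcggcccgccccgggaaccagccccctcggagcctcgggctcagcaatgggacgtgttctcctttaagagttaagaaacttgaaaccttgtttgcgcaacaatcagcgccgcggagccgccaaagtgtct

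The Eng window holds CAGAC matches at -214 and -127 from the start, and the Bmp4 and Smad6 windows hold none. CAGAC or GTCTG occurs in 42.19% of 32851 promoter windows of this length, so its presence sets no gene apart. The windows of Id3, Bmp6 and Bmpr2 lie inside the longer gene that GENCODE gives and are not shown. Of these, the Id3 window has CAGAC matches at -167 and -68 and the Bmp6 window 1 at -119. The Tgfbr2 window lies outside the gene, is also not shown, and has 1 CAGAC match at -160. The BMP-type SMAD motif GGCGCC, which reads the same on both strands, occurs in 9.59% of the windows and, of the 7 members, only in that of Bmpr2, at -105. The palindrome GTCTAGAC is in 0.17% of the windows and in none of the 7.

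In GENCODE M21 (GRCm38), the ligand genes lie on chromosome 13 from 38345107 to 38500302 (Bmp6) and on chromosome 14 from 46383520 to 46390669 (Bmp4). The receptor genes lie on chromosome 15 from 101128522 to 101145336 (Acvrl1), chromosome 1 from 59763400 to 59879014 (Bmpr2), chromosome 9 from 116084293 to 116175360 (Tgfbr2) and chromosome 2 from 32646595 to 32682669 (Eng). Smad6 spans 63953076 to 64022059 on chromosome 9, Id1 152736251 to 152737410 on chromosome 2, and Id3 136143497 to 136145755 on chromosome 4. Smad7 lies on chromosome 18. Members overlap 3 genes of the opposite strand that the tables also list, Bmp4 with Gm15222, Bmp6 with Txndc5 and Eng with Fpgs. How the counting treated strand is not given in the sources used here.

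The comparison of TECs with NECs asked how the pathway differs between tumor and normal endothelium. Bmp6, both inhibitory SMADs, both Id genes and Bmpr2 were at least 2-fold lower in TECs, while Eng, Acvrl1 and Tgfbr2 stayed within 2-fold. Bmp6, a ligand made by endothelium, was at 57.5 CPM in NECs (Poisson interval 54.0 to 61.2) and 5.38 CPM in TECs (3.48 to 7.94), which is 10.7-fold lower and rests on 997 and 25 UMIs. Bmp4, a BMP ligand with many roles in the embryo, was low in both libraries, with 10.7 CPM in NECs (9.25 to 12.4) and 9.47 CPM in TECs (6.88 to 12.7). These intervals overlap, and Bmp4 was below the minimum of 20 CPM set for the comparison.

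Among the receptors, Bmpr2 was at 243 CPM in NECs and 97.7 CPM in TECs, a log2 ratio of -1.32 (exact conditional interval -1.46 to -1.18). Acvrl1, which encodes ALK1, was at 232 CPM in NECs and 150 CPM in TECs, a log2 ratio of -0.63 (-0.75 to -0.52). Tgfbr2 differed by a like amount, at 183 CPM in NECs and 119 CPM in TECs (log2 -0.62, -0.75 to -0.49). Eng was the only 1 of the 9 compared members that was higher in TECs, at 741 CPM against 626 CPM (log2 0.24, 0.19 to 0.30), and it was lower (log2 -0.58) when tumor cells were kept whatever their cancer markers. The receptors thus spanned from slightly higher to 2.49-fold lower in TECs.

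The feedback inhibitors and targets were all lower in TECs. Smad7 was at 182 CPM in NECs and 47.8 CPM in TECs (log2 -1.93, -2.13 to -1.73). Smad6, the BMP-selective inhibitor, was at 31.0 CPM in NECs and 10.3 CPM in TECs (log2 -1.58, -2.04 to -1.16). Id1 was at 809 CPM in NECs and 303 CPM in TECs, and Id3 at 1247 and 540 CPM. Their log2 ratios were -1.41 (-1.49 to -1.33) and -1.21 (-1.27 to -1.15). Of the 9 members compared, 6 were 2-fold or more lower, where 19.1% of 6873 genes were, and 0 were 2-fold or more higher, where 11.2% were. Their median log2 ratio was -1.32, and that of all genes was -0.08. As the members were chosen with earlier results of these data known, these counts, and those between vessel types below, describe the chosen list only. With capillary-like NECs as the reference, Smad6 was at -0.52 and no longer past 2-fold, Bmpr2 was at -0.88, and Tgfbr2 was at 0.18, in the opposite direction. Venous-like NECs were nearer to the TEC levels than all NECs were for most members, with Id1 at 365 CPM, Id3 at 722, Smad7 at 72.7 and Smad6 at 13.2. They were farther from them for Bmpr2, at 262 CPM, and for Bmp4, at 52.9 CPM. The lower levels in TECs thus do not hold to the same degree against every normal vessel type.

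**Figure D1:**
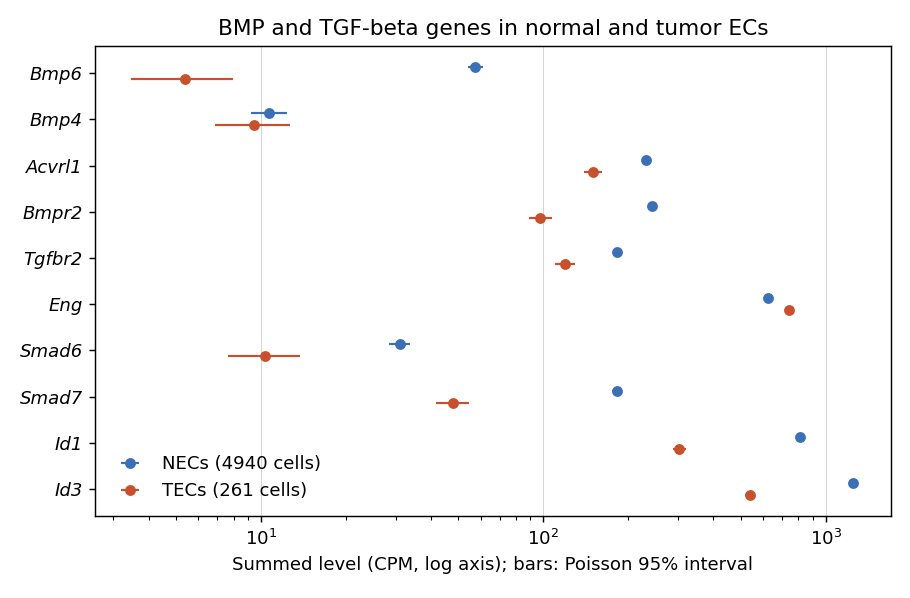
Summed level of each member in CPM (log axis) in 4940 NECs (blue) and 261 TECs (orange), 1 library each, with Poisson 95% intervals for counting error only. The blue and orange points lie far apart for Bmp6 (57.5 and 5.38 CPM) and Smad7 (182 and 47.8 CPM), overlap for Bmp4, and change order only for Eng (626 and 741 CPM).

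Since the TECs were sequenced more deeply per cell, shares of cells with a UMI were compared at 1900 UMIs drawn at random from each cell, with 1109 NECs and 22 TECs too shallow to be counted. Id1 was detected in 61.5% of NECs (Clopper-Pearson interval 60.0 to 63.1%) and 37.7% of TECs (31.5 to 44.1%), and Id3 in 74.3% and 48.1%. Without thinning the shares were 69.2% and 66.3% for Id1 and 81.3% and 75.1% for Id3, at unequal depth. Smad7 was detected in 27.8% of NECs and 10.9% of TECs, and Bmpr2 in 35.5% and 18.4%. Unthinned, Smad7 had shares of 37.6% and 39.8%, and Bmpr2 of 49.1% and 61.7%. Bmp6 was detected in 9.79% of NECs and 0.837% of TECs (0.102 to 2.99%), against 15% and 7.28% unthinned. In cells that should lack endothelial genes, thinned Bmp6 shares were 0.147% of 681 Epcam-positive cells of the NEC library and 0 of 170 cancer-like cells of the TEC library, which allows up to 2.15%. At this depth the Bmp6 share of TECs could not be told from that background. The cancer-like cells had Id1 in 7.65%, Id3 in 1.18% and Smad7 in 8.82% of cells after thinning. The Smad7 share of TECs (7.23 to 15.5%) thus overlapped that of cancer-like cells (5.02 to 14.1%). Smad7 was at 66.8 CPM from 690 UMIs in the cancer-like cells, so their share is not a background level for it. These cells had a median of 51745 UMIs before thinning.

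Of the other 67 pathway genes, 33 reached 20 CPM in NECs or TECs. In TECs, 8 were 2-fold or more higher, 10 were 2-fold or more lower and 15 were within 2-fold, with a median log2 ratio of -0.77. Of all 6873 genes compared, 11.2% were 2-fold or more higher and 19.1% lower. The ligands went both ways. Bmp2, a close relative of Bmp4, was at 21.9 CPM in NECs and 165 CPM in TECs, 7.52-fold higher, and 255 of its 380 NEC UMIs were in 1 cluster (13), without which NECs had 7.41 CPM. Inhbb, which encodes an activin subunit, was at 31.6 and 137 CPM. Tgfb1 was at 153 CPM in NECs and 208 CPM in TECs. Of the 5 further ligands compared besides Bmp6, 3 were past 2-fold and all of these were higher (Bmp2, Inhbb and Gdf15). Gdf15, named here after its value was seen, was at 15.2 CPM in NECs and 44.3 CPM in TECs, but 147 of its 206 TEC UMIs were in 1 cell. Without the cluster that holds this cell (TEC cluster 0), TECs had 11 CPM (7.66 to 15.3), not above the NEC level.

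Among co-receptors and transducers, Tgfbr3 (betaglycan) was at 100 CPM in NECs and 15.5 CPM in TECs, and Cd109, a TGF-beta co-receptor, at 9.52 and 59.6 CPM. None of the 4 SMAD transducers compared (Smad1, Smad2, Smad4 and Smad5, named after their values were seen) was past 2-fold, with a median log2 ratio of -0.08. Smad1 was nearest, at 102 CPM in NECs and 201 CPM in TECs.

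Most of the other targets were lower as well. Id2 was at 95.4 CPM in NECs and 28.0 CPM in TECs (log2 -1.77), and Hey1, a Notch and BMP target, at 68.1 and 29.7 CPM (log2 -1.20). Pmepa1, a TGF-beta-induced feedback gene, went the other way, at 56.2 and 143 CPM (log2 1.35). Of the 6 targets compared outside the members, 1 was higher, 4 were lower and 1 was within 2-fold. With Id1 and Id3 included, 8 targets were compared, of which 1 was higher, 6 were lower and 1 was within 2-fold. Of all 6873 genes compared, 11.2% were 2-fold or more higher and 19.1% lower.

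Of 3 extracellular antagonists compared, 1 was lower (Mgp) and 2 were within 2-fold. Mgp (matrix Gla protein), which binds BMPs, was at 396 CPM in NECs and had only 4 UMIs in TECs, or 0.861 CPM. Of 5 genes that store or release latent TGF-beta, 2 were higher, 2 were lower and 1 was within 2-fold. Ltbp4, which anchors latent TGF-beta in the matrix, was at 539 CPM in NECs and 47.6 CPM in TECs, while Nrros, which tethers latent TGF-beta to the cell surface, was at 34.9 and 79.6 CPM. Among 5 decoy receptor or intracellular brake genes outside the members, Fkbp1a was the only 1 past 2-fold, at 500 and 1428 CPM. It encodes a protein bound to resting type I receptors.

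**Figure D2:**
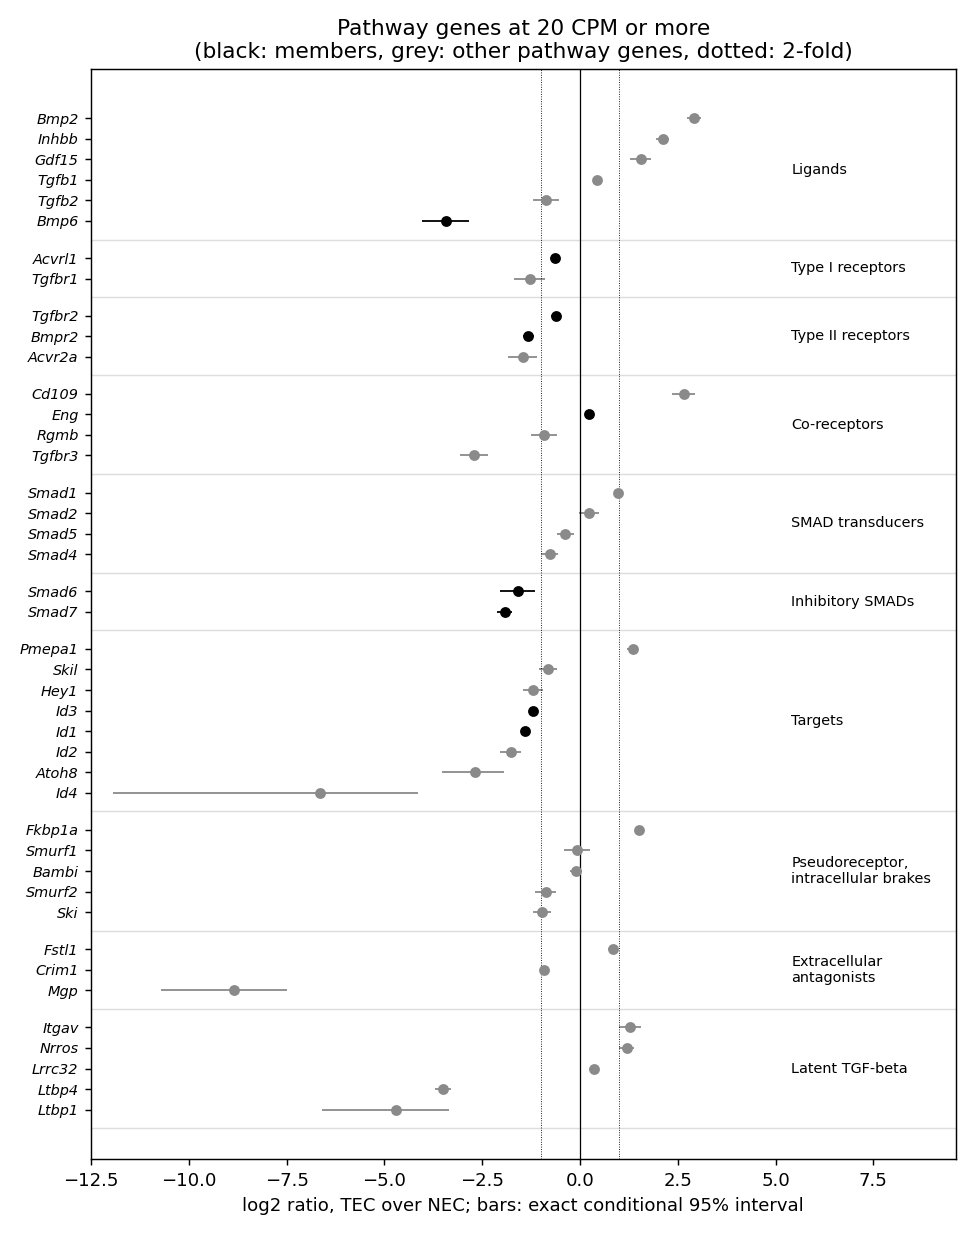
Log2 ratio of TECs over NECs for the 42 pathway genes at 20 CPM or more in either group, by role, with exact conditional 95% intervals. Members are black, other pathway genes grey, and dotted lines mark 2-fold. Both inhibitory SMADs lie left of the lower line, as do 6 of 8 targets, while Bmp2 (2.91) and Cd109 (2.65) lie farthest right.

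Mitotic cells were more frequent among TECs, so the comparison was repeated within the mitotic-like clusters (30 NECs and 57 TECs) and among the other cells. In the mitotic-like cells, Id1 was at 369 CPM in NECs and 279 CPM in TECs (log2 -0.40, -0.71 to -0.08), against a log2 ratio of -1.36 outside these clusters. Id3 had a log2 ratio of -0.59 in mitotic-like cells and -1.27 in the others. Smad7 had ratios of -0.91 and -1.72, and Bmpr2 of -0.96 and -1.18. Thus Id1, Id3, Smad7 and Bmpr2 were lower in TECs in both sets of cells, with smaller differences among mitotic-like cells, where NECs had few UMIs of Smad7 (18) and Bmpr2 (44). The difference between the sets was not tested.

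**Figure D3:**
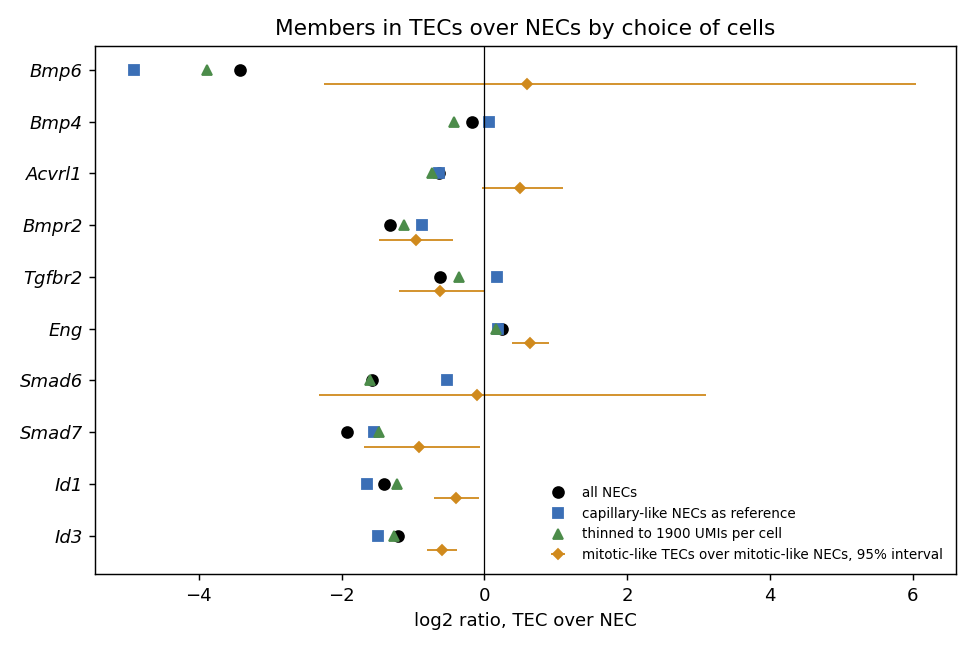
Log2 ratio of TECs over NECs for each member with all NECs (black circles), with capillary-like NECs as the reference (blue squares), with each cell thinned to 1900 UMIs (green triangles), and within mitotic-like cells (yellow diamonds with exact conditional 95% intervals; Bmp4 had no UMI in the mitotic-like NECs and is left out). Smad7, Id1, Id3 and Bmpr2 lie below 0 under all 4 choices, and Tgfbr2 crosses 0 to 0.18 against capillary-like NECs.

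The NECs were clustered to follow the members through normal vessel types, with all pathway genes kept out of the genes that define the clusters. Of 17 clusters, 3 were named capillary-like (1733 cells), 2 arterial-like (673), 3 venous-like (447) and 1 each HEV-like (high endothelial venule, 150), salivary-like (111), pericyte-like (46) and mitotic-like (30). The other 5 clusters stayed unnamed (1750 cells). With other resolutions or numbers of PCs the HEV-like class held 89 to 97 cells, and resolution 1.2 also gave a tip-like cluster of 69 cells. The salivary-like cluster is shallow, with a median of 809 UMIs.

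Bmp6 was highest in capillary-like NECs, at 160 CPM, apart from the salivary-like cells with 165 CPM from 17 UMIs, whose interval overlapped. It was at 45.0 CPM in arterial-like cells (log2 -1.83 against capillary-like, -2.15 to -1.53), 24.6 CPM in venous-like cells (-2.71, -3.14 to -2.30) and 9.33 CPM in HEV-like cells (-4.10, -5.17 to -3.21), the last falling to between 3.78 and 5.11 CPM, from 3 or 4 UMIs, in the smaller HEV-like classes of the other clusterings. All 3 capillary-like clusters were high, with 187, 116 and 183 CPM. Clusters 10 and 3, left unnamed by the naming rule though they had 6 and 4 capillary markers, were lower, at 65.2 and 17.2 CPM. The high Bmp6 level thus holds for the clusters named capillary-like and not for every cluster with capillary markers. Bmp4 followed the other vessel type. It was at 52.9 CPM in venous-like NECs and 9.05 CPM in capillary-like NECs, 5.84-fold apart, and its levels in arterial-like (9.91), salivary-like and capillary-like cells had overlapping intervals. The 2 ligands were thus highest in different vessel types, Bmp6 in capillary-like and Bmp4 in venous-like NECs.

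Of the 112 Bmp4 UMIs of venous-like NECs, 59 were in cluster 13, with a level of 130 CPM (99.2 to 168) in its 108 cells. The other venous-like clusters, 7 and 14, had 33.9 and 28.1 CPM. Fibroblast markers were at 241 CPM in cluster 13, with 4 of 7 detected and Lum, Col1a1 and Pdgfra at 0, and at 6.60 CPM in cluster 7. The pericyte-like cluster had fibroblast markers at 2468 CPM and Bmp4 at 3.20 CPM. Cluster 13 had all 7 lymphatic markers, at 1692 CPM, against 27.3 and 71.2 CPM in clusters 7 and 14. Its HEV markers were at 3101 CPM, against 148 and 131 CPM. The part of such cells in its Bmp4 and Bmp2 levels was not tested. Without cluster 13 the log2 ratio of venous-like over capillary-like NECs was 1.81. Cluster 13 also had the highest Bmp2 level of the NEC clusters, at 563 CPM, from 17 of its 108 cells.

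The receptors varied less between arterial-like, capillary-like and venous-like NECs than the 2 ligands did. Acvrl1 was at 326 CPM in arterial-like, 231 CPM in capillary-like and 153 CPM in venous-like NECs. Bmpr2 ran the other way for veins, with 262 CPM in venous-like, 231 CPM in arterial-like and 180 CPM in capillary-like cells, the first 2 with overlapping intervals. Tgfbr2 was at 176 CPM in arterial-like, 135 CPM in venous-like and 105 CPM in capillary-like cells. Eng was at 754 CPM in venous-like, 648 CPM in capillary-like and 568 CPM in arterial-like cells. Eng was highest in venous-like cluster 7 (819 CPM), and the other receptors in unnamed clusters, Acvrl1 (400 CPM) and Bmpr2 (404 CPM) in NEC cluster 3, led by Meis2, and Tgfbr2 (429 CPM) in cluster 6, led by Tmem35a. Over the 17 clusters, Eng ranged 2.61-fold from 314 to 819 CPM, and Tgfbr2 ranged 8.25-fold.

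Smad6 was highest in arterial-like NECs, at 73.4 CPM against 14.8 CPM in capillary-like cells (log2 2.31, 1.88 to 2.76) and 13.2 CPM in venous-like cells. Both arterial-like clusters were high, at 70 and 78.8 CPM. Unnamed cluster 2, at 62.2 CPM (52.0 to 73.8), overlapped the first of these, so a high Smad6 level was not limited to arterial-like cells. Smad7 was highest in unnamed cluster 8, at 325 CPM, and the unnamed clusters together had 247 CPM. Among the named vessel types Smad7 was at 223 CPM in arterial-like, 140 CPM in capillary-like and 72.7 CPM in venous-like NECs. Id1 had the same order, with 1377, 956 and 365 CPM, and none of these 3 intervals overlapped. Id3 was alike in arterial-like (1510 CPM) and capillary-like (1514 CPM) cells and lower in venous-like cells (722 CPM). Over the clusters Id1 ranged 7.26-fold, from 202 CPM in venous-like cluster 14 to 1467 CPM in arterial-like cluster 9, and Id3 5.18-fold, from 396 CPM in cluster 14 to 2051 CPM in cluster 6. In cluster 13, where both Bmp4 and Bmp2 were highest, Id1 was at 247 CPM, its second lowest level.

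Of 9 members compared between arterial-like and capillary-like NECs, 1 was 2-fold or more higher (Smad6) and 1 lower (Bmp6), where 6.76% and 5.26% of 6670 genes were. Between venous-like and capillary-like NECs, 1 of 9 was higher (Bmp4) and 3 were lower (Bmp6, Id1 and Id3), where 7.77% and 6.55% of 6761 genes were. The median log2 ratio of the members was 0.49 for arterial-like and -0.60 for venous-like cells, and that of all genes -0.01 and -0.09. When each cell was sorted by its own markers, which put 4029 cells into the capillary-like class, Bmp6 was at -0.33 in arterial-like over capillary-like cells and no longer past 2-fold.

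**Figure D4:**
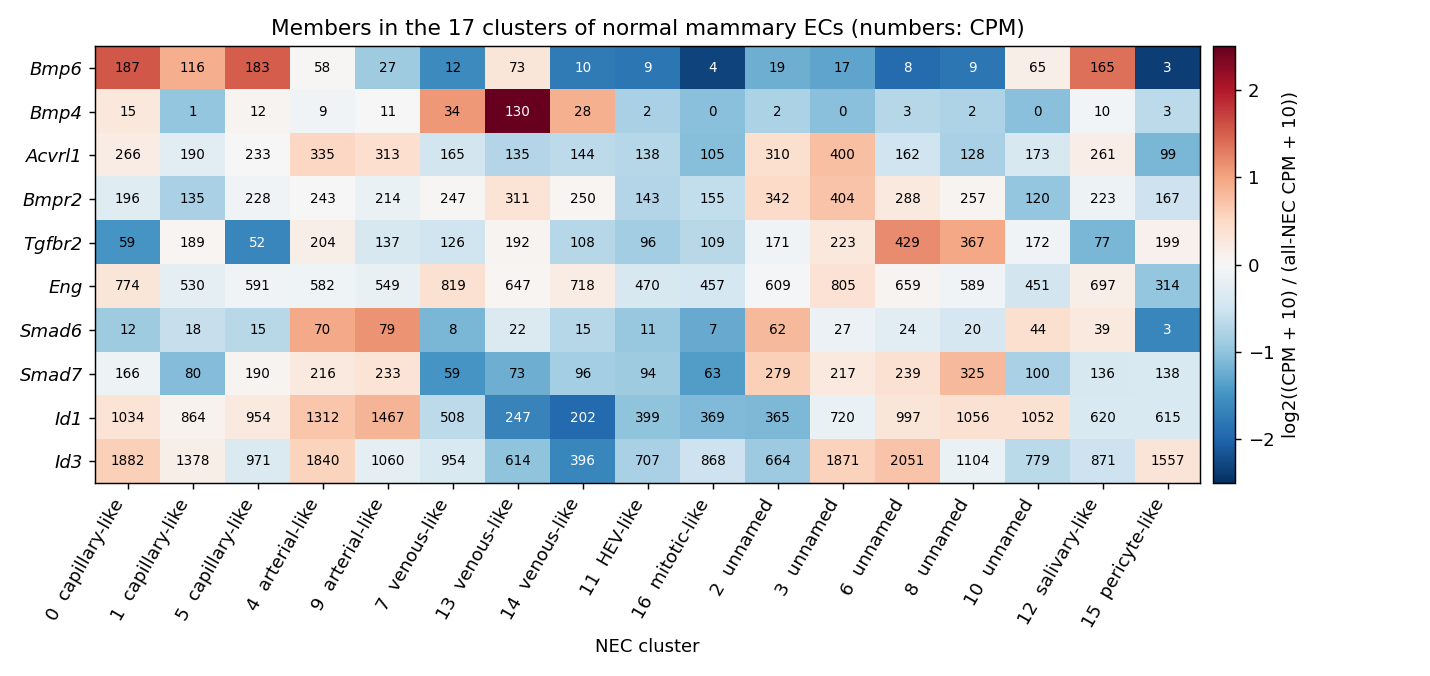
Level of each member in the 17 NEC clusters, with the CPM printed in each cell and the colour giving log2 of (CPM + 10) over the level in all NECs (+ 10). Red cells mark Bmp6 in capillary-like clusters (187, 116 and 183 CPM), Bmp4 in venous-like cluster 13 (130 CPM) and Smad6 in both arterial-like clusters, and Id1 is blue in venous-like clusters 13 and 14 (247 and 202 CPM).

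Other pathway genes also separated the vessel types. Arterial-like NECs had Tgfb2 at 153 CPM against 5.72 CPM in capillary-like cells, Hey1 at 240 against 53.4 CPM, and Lrrc32 (GARP), a docking protein for latent TGF-beta, at 264 against 53.8 CPM. Mgp was at 2106 CPM in arterial-like and 710 CPM in venous-like NECs and at 41.7 CPM in capillary-like cells. Fstl1, a follistatin-like secreted protein, was at 182 CPM in arterial-like, 170 CPM in venous-like and 48.8 CPM in capillary-like NECs. Bmp2 was at 123 CPM in venous-like NECs only through cluster 13, which held 255 of its 260 UMIs. The other venous-like clusters had 3.0 CPM (0.975 to 7.01) and capillary-like NECs 4.53 CPM (2.72 to 7.07). In all, 9 of 30 other pathway genes were 2-fold or more higher and 3 lower in arterial-like cells, and 7 of 31 higher and 3 lower in venous-like cells. Of all genes compared, 6.76% were higher and 5.26% lower in arterial-like cells, and 7.77% and 6.55% in venous-like cells. Without cluster 13 the venous-like counts were 5 of 29 higher and 4 lower.

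Genes whose level followed a member over the 17 clusters were ranked among 5893 genes by Pearson's r of log2(CPM + 10), as a description, since the clusters share a library. Nearest to Bmp6 were Xiap (0.906), Palm (0.905) and Rassf3 (0.896), and nearest to Bmp4 were Wipf3 (0.902), Grina (0.899) and Itga9 (0.892). Id1 was most like Hey1 (0.831), Sh2b3 (0.819) and Map4k3 (0.819), and Smad6 most like Itsn2 (0.817), Tgfb2 (0.799) and Tapbp (0.782). Hey1 and Tgfb2 are on the pathway list.

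Within capillary-like NECs thinned to equal depth, 266 cells with a Bmp6 UMI and 815 without were compared. Id1 was at 981 CPM in cells with and 977 CPM in cells without Bmp6 (log2 0.01, -0.14 to 0.15), and Id3 at 1470 and 1529 CPM (log2 -0.06, -0.18 to 0.06). Eng was at 754 and 610 CPM (log2 0.30, 0.13 to 0.48) and Bmpr2 at 208 and 154 CPM (log2 0.43, 0.08 to 0.77). A difference in the Id genes larger than these intervals was not seen between the 2 sets of cells. Before thinning, the 1733 capillary-like NECs held only 673 Bmp6 UMIs, so a cell that expresses Bmp6 can lack a UMI of it. The split therefore cannot separate cells that express Bmp6 from cells that do not. Whether the Id genes follow Bmp6 from cell to cell is not decided by it. Both sets pool the capillary-like clusters, of which cluster 1 was lowest for Bmp6 (116 CPM), Eng (530 CPM) and Bmpr2 (135 CPM). The part of the clusters in the Eng and Bmpr2 differences was not tested.

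TECs were clustered alone into 4 clusters, of which only cluster 3 met the naming rule (mitotic-like, 57 cells). Cluster 0 (83 cells) was led by Ptprr, Cldn15 and Tbxa2r and had 6 arterial markers. Cluster 1 (63 cells) was led by Pgf, Egln3 and Camk2n1 and had 5 tip cell and 7 interferon-response markers. Cluster 2 (58 cells) was shallow, with a median of 2208.5 UMIs.

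In clusters 0 to 3, in that order, Id1 was at 499 CPM (464 to 537), 137 CPM (117 to 158), 153 CPM (103 to 220) and 279 CPM (254 to 305). Id3 was likewise at 786, 248, 312 and 576 CPM. Smad7 followed with 88.1, 23.1, 31.7 and 33.7 CPM. Cluster 0 was thus the highest for the targets and Smad7, with 3.65-fold more Id1, 3.16-fold more Id3 and 3.82-fold more Smad7 than cluster 1. Eng, at 1074 CPM in cluster 0 and 444 CPM in cluster 1, and Bmpr2, at 138 and 85.3 CPM, were also higher in cluster 0. Acvrl1 differed less, at 168 and 140 CPM (log2 0.26, -0.02 to 0.55), and Tgfbr2 was highest in cluster 1, at 170 CPM against 132 CPM.

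The ligands had another pattern. Bmp2 reached 490 CPM in cluster 1, with 34.8 and 35.5 CPM in clusters 0 and 3, while Bmp4 was at 21.5 CPM in cluster 1 and 4.78 CPM in cluster 0, from 28 and 7 UMIs. The Bmp4 UMIs came from 6 of 63 cells in cluster 1 (9.52%) and 7 of 83 cells in cluster 0 (8.43%), so the level differed and the share of cells hardly did. Bmp6 was low throughout, from 0 UMIs in cluster 2 to 6.15 CPM in cluster 1. Inhbb was at 146 CPM in cluster 0 and 210 CPM in cluster 1. Among the 3 deeper clusters, the one with the highest Bmp2 thus had the lowest Id1 and Id3, while the intervals of the shallow cluster 2 overlapped those of cluster 1 for both Id genes.

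**Figure D5:**
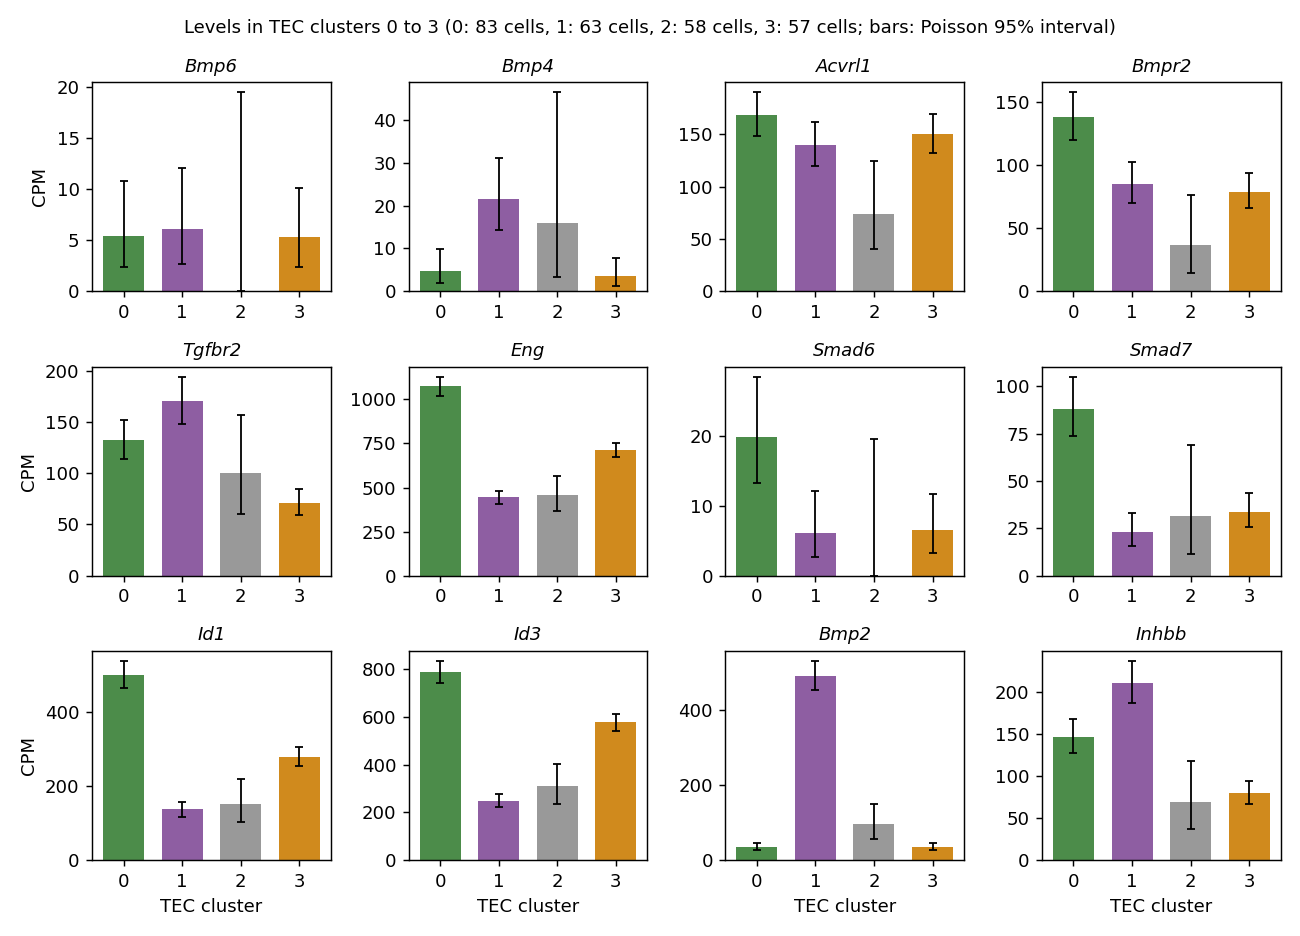
Levels of the 10 members, Bmp2 and Inhbb in the 4 TEC clusters (bars, CPM from 0, with Poisson 95% intervals; each panel has its own axis). Cluster 0 has the tallest bars for Eng (1074 CPM), Smad7 (88.1 CPM), Id1 (499 CPM) and Id3 (786 CPM), and cluster 1 for Bmp2 (490 CPM).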

How the data were processed

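For each library the authors deposited 1 table of raw UMI counts made with Cell Ranger. Per the labels, the build was mm10 and Seurat was also used. The Cell Ranger version and the annotation are not given in the sources used here. The depth was 40914092 UMIs over 9047 barcodes for NECs and 18980858 over 704 for TECs. No doublet caller was run.

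Cells were filtered as stated in the report. Counts were summed over cells and divided by all UMIs (CPM). Sums have Poisson, shares Clopper-Pearson and ratios exact conditional binomial 95% intervals, and the interval code was checked on simulated data. Genes at 20 CPM or more in either group were compared. Clustering used Seurat 5.3.0 in R 4.3.3 (LogNormalize, 4000 variable genes without pathway genes, 20 PCs, 20 neighbors, resolution 0.8). A cluster was named when at least 3 markers of a list were each in 25% or more of its cells at 2-fold or more, with 1 among its top 10 genes and no list with more. Other steps used pandas 2.3.3, scipy 1.17.1, numpy 2.4.6 and matplotlib 3.10.9 under Python 3.11.15. RefSeq windows and GENCODE M21 positions are on GRCm38.

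The members and lists were chosen with earlier results of these data known. Of the pathway list, 1 gene is not reported here and is left out of its counts. Named genes are the 10 members, other pathway genes at 50 CPM or more in a library and past 2-fold, those at 100 CPM or more in an NEC class and past 3-fold from capillary-like cells, the 3 genes most like Bmp6, Bmp4, Id1 and Smad6, and leading genes of clusters. Alternatives varied cell filters (500 genes, 5% mitochondrial UMIs, both Cdh5 and Pecam1), thinning, the mean over cells, the reference, mitotic cells, the 5% of cells with most UMIs, the CPM minimum (100), PCs (10 and 30), the resolution (0.4 and 1.2) and sorting by each cell's own markers. Leaving out the pericyte-like and salivary-like clusters, TEC cluster 0 or 2, or NEC cluster 13, and keeping all tumor cells whatever their cancer markers, were added after seeing the data.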

Additional observations from a re-analysis of the deposited data

Results flagged for a closer look

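In mitotic-like cells, 2 members went the opposite way from the other cells. Acvrl1 had a log2 ratio of TECs over NECs of 0.50 in mitotic-like cells (-0.04 to 1.10, from 253 and 30 UMIs) and -0.65 in the others. Bmp6 had ratios of 0.60 (-2.25 to 6.05, from 9 and 1 UMIs) and -3.43. Both differences between the sets were not tested, and both mitotic-like intervals hold 0.

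Members also had signal in cells outside the endothelial comparisons. In 698 Epcam-positive cells of the NEC library without Cdh5 or Pecam1 UMIs (median 10806 UMIs), Id3 was at 135 CPM, Tgfbr2 at 65.0, Bmpr2 at 56.2, Smad7 at 51.5, Id1 at 33.9, Eng at 25, Acvrl1 at 7.76, Smad6 at 3.13 and Bmp6 at 0.647 CPM. In 276 cells with Myh11 or Cspg4 UMIs, as smooth muscle and pericytes have, Id3 was at 1122 CPM, near its 1247 CPM in NECs, with Id1 at 146, Smad7 at 94.8, Bmpr2 at 87.8, Tgfbr2 at 49.8, Eng at 37.1, Acvrl1 at 16.2, Bmp6 at 10.0 and Smad6 at 4.80 CPM. In 26 cells with 3 or more fibroblast markers, Id3 was at 800.0 CPM and Tgfbr2 at 667 CPM, above its level in NECs, with Bmpr2 at 152, Smad7 at 63.5, Eng at 50.8 and Id1 at 31.7 CPM. In 184 cancer-like cells of the TEC library, Smad7 was at 66.8 CPM, Eng at 50.1, Id1 at 49.5, Bmpr2 at 28.5, Id3 at 10.5, Tgfbr2 at 10.1 and Acvrl1 at 5.42 CPM, and Bmp6, Bmp4 and Smad6 had 0 UMIs. Smad7 was thus the only member with a higher level in cancer-like cells than in TECs (47.8 CPM).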

How the results depend on the processing

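With 1 library per condition, all values describe these libraries. No paired analysis was possible because each group has 1 library. The count of members 2-fold or more higher in TECs was 0 under every alternative. The count lower was 6 as reported. It ranged from 4, with capillary-like NECs as the reference or a minimum of 100 CPM, to 8 with all tumor cells kept whatever their cancer markers. At the minimum of 100 CPM, Bmp6 and Smad6 were no longer compared, as both were below it in both libraries. The shares of all genes past 2-fold under these alternatives are not given here. Of 120 alternative ratios of TECs over NECs, 81 moved by less than counting error and 5 changed sign, all of Bmp4, Eng or Tgfbr2. Bmp6 ranged from -4.90 to -3.12, Id1 from -2.13 to -1.15, Id3 from -2.08 to -1.13, Smad7 from -2.0 to -1.48, Smad6 from -2.5 to -0.52, Bmpr2 from -1.91 to -0.88, Acvrl1 from -1.47 to -0.56, Tgfbr2 from -1.43 to 0.18 and Eng from -0.58 to 0.33, with most of the lowest values from keeping all tumor cells. Between vessel classes, sorting each cell by its own markers changed the count of lower members from 1 to 0 for arterial-like and from 3 to 5 for venous-like cells. Of the other ratios, 9 of 80 arterial ones (Id3 and Tgfbr2) and 1 of 90 venous ones (Tgfbr2) changed sign.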

Other observations

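Pathway genes outside the 10 also separated the smaller NEC classes. HEV-like cells, which line the venules where lymphocytes leave the blood, had Tgfbi, a TGF-beta-induced matrix protein, at 174 CPM (186 UMIs in 150 cells) against 1.19 CPM in capillary-like cells, and Ltbp2, a matrix protein of the latent TGF-beta binding family, at 105 CPM against 1.19 CPM. In the same cells Id1 was at 399 CPM and Id3 at 707 CPM, 2.39-fold and 2.14-fold below capillary-like cells. In the 89 to 97 HEV-like cells of the other clusterings, Tgfbi was at 233 to 240 CPM, Ltbp2 at 143 to 147 CPM, Id1 2.05-fold to 2.16-fold and Id3 2.05-fold to 2.17-fold below capillary-like cells. The pericyte-like cluster had Fst (follistatin), which traps activins, at 558 CPM against 1.19 CPM in capillary-like cells, with Nbl1, a BMP antagonist, at 218 against 5.72 CPM, Id4 at 205 against 6.91 CPM, and Fstl1 and Mgp at 218 and 1083 CPM. Ltbp4 was lower there, at 183 CPM against 553 CPM.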
